A study of Mus musculus with 18 samples.

Results

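The genes described here are 44 cytokines, chemokines and receptors of macrophages, out of 49315 genes counted in each library. They were listed by symbol and matched to Ensembl gene identifiers through GENCODE M21 on GRCm38, and all 44 symbols had 1 identifier. RNA was sequenced from bone marrow-derived macrophages (BMDMs), cells grown from mouse femur marrow in medium conditioned by L929 cells, which supplies the growth factor M-CSF. The control macrophages are called WT in the sample labels and HDAC3 f/f in the study's methods, and carry loxP sites around exon 7 of Hdac3, a histone deacetylase gene. The macrophages labelled HDAC3 KO came from M-HDAC3-/- mice, which carry the same floxed alleles and a Cre recombinase expressed from the Lyz2 locus in myeloid cells. The floxed mice were C57BL/6J, and the ages of the marrow donors were not given in the sources used here. A set of BMDMs per genotype had no added cells and is called untreated here. Either apoptotic cells (ACs) or cells that were not apoptotic (NACs) were added to the others for 45 min, and after a wash the BMDMs stayed in culture for 5 h until RNA was isolated. The ACs were cells of K562, a human leukemia line, irradiated with UVB for 15 min and used 2 h later. The labels call the NACs non-apoptotic and say no more of how they were kept. Each of the 6 groups had 3 biological replicates, in 18 libraries, and the study's methods give 3 animals per group. Whether the 3 treatments of 1 genotype came from the same animals was not given.

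Chemokines are small secreted proteins that draw leukocytes along a gradient by binding G protein-coupled receptors, and cytokines such as the interleukins and Tnf carry signals between immune cells. Macrophages are a main source of both, and they respond to M-CSF through Csf1r and to recruiting chemokines through Ccr2. Uptake of apoptotic cells, called efferocytosis, is known to lower inflammatory cytokines and to raise Tgfb1 and Il10 in macrophages. The comparisons here ask how these genes differed with the genotype label and with each kind of added cell.

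Total counts per library ranged from 4704491 to 26421267, with the lowest total in replicate 1 of untreated HDAC3 KO. Hdac3 itself was counted over all of its exons, and reads from exons outside the deleted part remain in such a count, so it checks the labels only in part. Hdac3 levels, in CPM (counts scaled to the TMM-normalised library size), were 3.38, 44.4 and 31.9 in replicates 1, 2 and 3 of untreated WT. They were 38.7, 11.4 and 74.6 in untreated HDAC3 KO. With NACs, they were 48.7, 44 and 11.6 in WT and 4.66, 34.0 and 42.6 in HDAC3 KO. With ACs, they were 7.12, 38.3 and 29.7 in WT and 39.7, 10.1 and 17.9 in HDAC3 KO. Hdac3 was therefore not lower in the HDAC3 KO groups than in the WT groups untreated, and the ranges overlapped under each treatment, so groups are named from here on by their labels, WT and HDAC3 KO, which are names and not a measured genotype. Whether each library carries the genotype on its label was not tested, these values do not show that no labels were swapped, and a swap would change each result that compares the genotype labels. All 9 macrophage markers averaged over 10 CPM, and their sum ranged from 6048 to 17944 CPM. Summed over a list, granulocyte markers ranged from 233 to 1326 CPM between libraries and dendritic cell markers from 245 to 1233 CPM, B cell markers from 24.8 to 89.3 CPM, erythroid and K562 markers from 6.89 to 62.6 CPM, basophil and mast cell markers from 1.26 to 37.3 CPM, and T and NK cell markers from 2.19 to 8.65 CPM. The B cell marker Pax5, the T cell marker Cd3e, the mast cell marker Ms4a2 and the erythroid marker Klf1 stayed under 1 CPM in every library. Replicate 1 of untreated WT, of ACs-treated WT and of NACs-treated HDAC3 KO stood apart, with summed fibroblast markers of 10.7 to 21 CPM against 66.2 to 377 CPM in the other 15 libraries. In a principal component analysis, replicate 1 of untreated HDAC3 KO lay farthest out on the second component, at -114 against -45.8 to 85.3 elsewhere. It is not counted here among the 3 that stood apart.

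Levels were first compared between genes as TPM (transcript abundance corrected for gene length), as means over the 18 libraries. The 44 genes together held 0.181% to 0.968% of the TPM of a library. Ccl6 and Ccl9, CC chemokines that myeloid cells make without stimulation and that bind Ccr1, were the most abundant members over all libraries, with mean levels of 1697 TPM (307 to 3604 between libraries) and 1288 TPM (247 to 3015). Csf1r, the M-CSF receptor on which macrophages depend, followed at 944 TPM (218 to 2349). Cxcl16, a chemokine that is also a scavenger receptor for oxidized lipoprotein, averaged 571 TPM, Tgfb1, the ligand of the TGF-beta receptors, 496 TPM, and the chemokine receptor Cxcr4 236 TPM. The ranges of these 6 genes overlapped between neighbours in the order, and the order changed with the group. In untreated HDAC3 KO, Csf1r (1243 TPM) lay above Ccl6 (1199 TPM), and Ccl9 (445 TPM) below Cxcl16 (565 TPM) and Tgfb1 (523 TPM). With ACs in HDAC3 KO, Csf1r (1502 TPM) lay above Ccl9 (512 TPM), and in untreated WT Ccl9 (2456 TPM) lay above Ccl6 (2115 TPM).

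**Figure D1:**
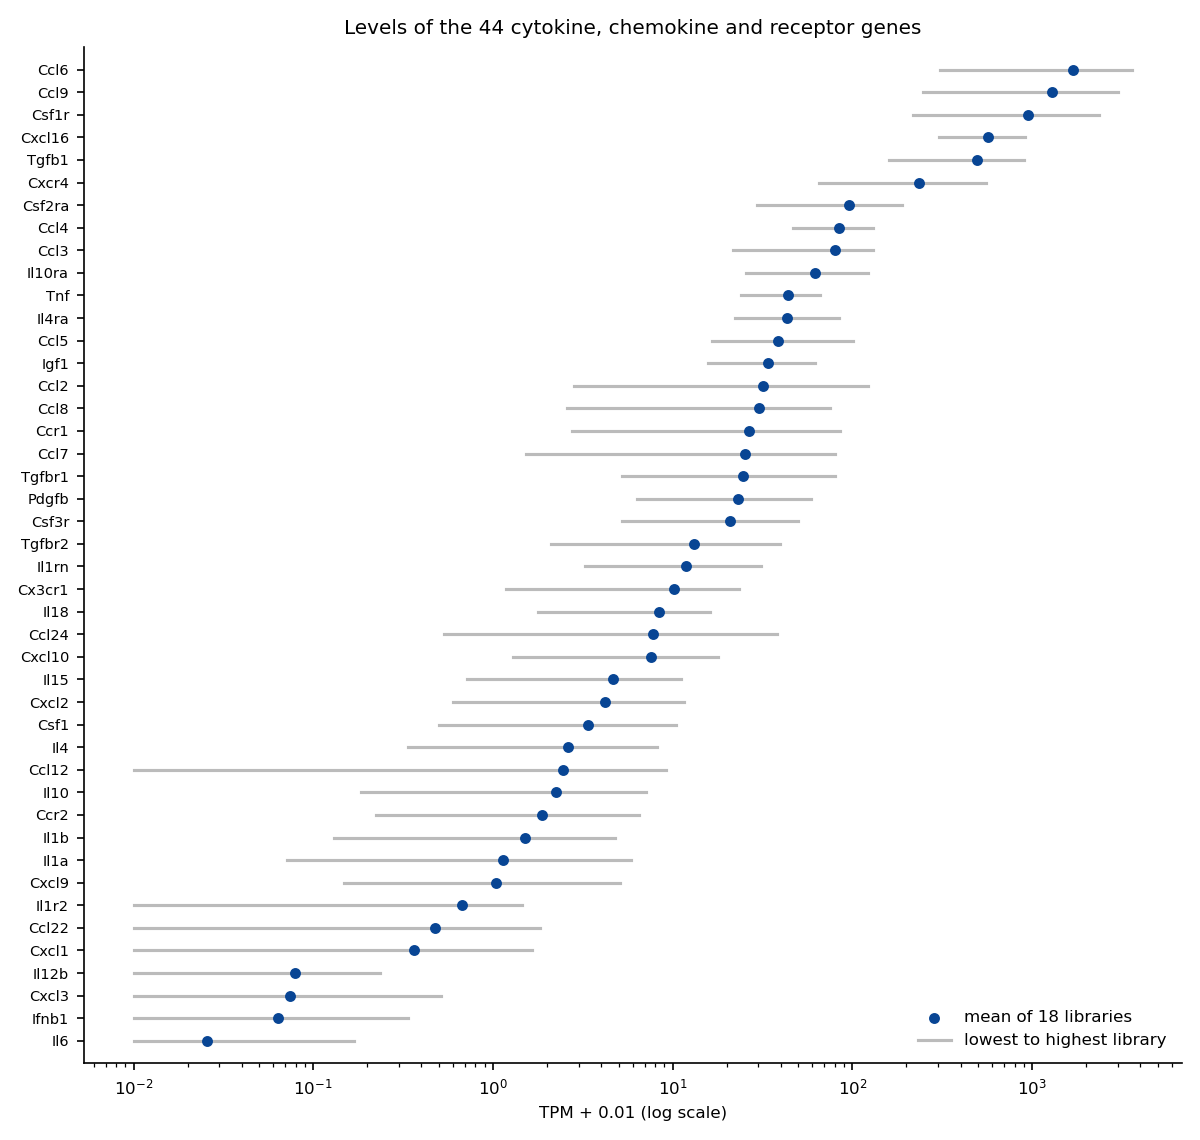
Level of each of the 44 genes in TPM plus 0.01, on a log scale. Points are means of 18 libraries and grey lines run from the lowest to the highest library. Ccl6 and Ccl9 lie at the top with means of 1697 and 1288 TPM, and Il6 and Ifnb1 at the bottom with means of 0.0155 and 0.0536 TPM.

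Tnf, the main inflammatory cytokine among the members, averaged 44 TPM (23.9 to 65.9). Ccl3 and Ccl4, inflammatory chemokines that lie side by side on chromosome 11, averaged 79.9 and 84.8 TPM. The receptors for interleukin-10 and interleukin-4, Il10ra and Il4ra, averaged 62.3 and 43.2 TPM. Their ligands were far lower, with Il4 at 2.62 TPM and Il10 at 2.22 TPM. Of the interleukin-1 family, the antagonist Il1rn averaged 11.9 TPM, Il18 8.39 TPM, Il1b 1.49 TPM and Il1a 1.13 TPM, and the decoy receptor Il1r2 0.664 TPM. Il18 lay above Il1rn in untreated WT (13.5 against 8.14 TPM) and with ACs in WT (8.53 against 8.19 TPM), and below it in the other 4 groups.

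Several defining genes of an inflammatory response were close to 0. Il6 had 6 counts in the 18 libraries together, and was at 0 in 16 libraries. Ifnb1, the type I interferon, had 7 counts and was at 0 in 14 libraries. Il12b, a subunit of interleukin-12, had 22 counts, with 9 libraries at 0. With no read counted, a level of up to 3 counts remains possible, or between 0.115 and 0.754 CPM per library, so a count of 0 does not exclude a low level. This limit covers counting error only.

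The neutrophil-attracting chemokines Cxcl1, Cxcl2 and Cxcl3, ligands of Cxcr2, lie close together on chromosome 5. Cxcl2 averaged 4.19 TPM with 1285 counts in all, Cxcl1 0.353 TPM with 101 counts, and Cxcl3 0.064 TPM with 36 counts. Of the 3, only Cxcl2 passed the count filter in the edgeR fits of each comparison's own libraries. The sequence before their start sites is shown because these neighbours differed in level. Another reason is that, by a test given below, Cxcl2 was lower with ACs than with NACs in HDAC3 KO macrophages. Ccl9 and Csf1 are shown beside them because they passed the same test, Ccl9 lower and Csf1 higher, and because their windows held the letters searched for. Tgfbr1 passed it too and is not shown, with 0 matches in its windows. Pdgfb passed it as well, but had no window in the sequences used and was not searched. The sequences come from RefSeq on GRCm38.p6, 5′ to 3′ on the gene's strand, and run from 250 bases before the RefSeq start up to the first base of the gene in either annotation. Capitals mark the letters GGG, then any 2 bases, then TTTCC, searched on both strands, a form of the site of NF-kB, the main factor of inflammatory gene activation.

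Cxcl2: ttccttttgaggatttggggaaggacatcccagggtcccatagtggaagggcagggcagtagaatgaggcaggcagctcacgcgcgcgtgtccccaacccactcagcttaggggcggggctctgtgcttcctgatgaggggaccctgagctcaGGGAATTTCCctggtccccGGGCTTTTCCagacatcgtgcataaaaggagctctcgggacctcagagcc
Cxcl1: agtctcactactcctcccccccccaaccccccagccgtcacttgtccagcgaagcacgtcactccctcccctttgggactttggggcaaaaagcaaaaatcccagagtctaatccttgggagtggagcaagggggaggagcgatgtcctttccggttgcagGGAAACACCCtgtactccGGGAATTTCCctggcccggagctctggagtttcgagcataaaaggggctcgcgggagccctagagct
Cxcl3: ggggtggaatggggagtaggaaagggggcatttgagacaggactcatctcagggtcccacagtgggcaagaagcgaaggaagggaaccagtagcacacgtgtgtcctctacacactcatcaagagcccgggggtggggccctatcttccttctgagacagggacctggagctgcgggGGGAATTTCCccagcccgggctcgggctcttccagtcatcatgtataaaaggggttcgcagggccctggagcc
Ccl9: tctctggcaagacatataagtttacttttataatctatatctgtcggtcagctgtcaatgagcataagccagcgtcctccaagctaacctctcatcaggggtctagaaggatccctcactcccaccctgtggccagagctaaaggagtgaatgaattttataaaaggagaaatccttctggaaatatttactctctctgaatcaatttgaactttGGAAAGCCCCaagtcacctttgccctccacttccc
Csf1: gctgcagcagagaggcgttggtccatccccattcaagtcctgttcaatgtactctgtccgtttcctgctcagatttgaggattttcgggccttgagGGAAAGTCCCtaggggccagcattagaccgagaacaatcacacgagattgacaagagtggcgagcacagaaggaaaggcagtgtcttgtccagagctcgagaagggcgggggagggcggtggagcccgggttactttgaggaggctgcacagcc

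The Cxcl2 stretch is chr5:90903649-90903870, Cxcl1 is chr5:90890995-90891240 and Cxcl3 is chr5:90785851-90786100, all on the plus strand. Ccl9 is chr11:83578637-83578886 and Csf1 is chr3:107760470-107760719, both on the minus strand. The letters occurred at 2 places before Cxcl2, 2 before Cxcl1, and 1 each before Cxcl3, Ccl9 and Csf1. The run GGGAATTTCC stood before all 3 Cxcl genes, from 97 to 88 bases before the RefSeq start of Cxcl2, from 71 to 62 bases before that of Cxcl1 and from 73 to 64 bases before that of Cxcl3. Of 32851 windows of 250 bases before a RefSeq start, 1.41% held these letters. Of the 27025 genes with a window 1.65% held them in at least 1, and of the 33 members with a window 7 did, which were the 5 above with Il1rn and Il6. Il6 and Cxcl3 were nearly silent and Cxcl2 was not, so the letters were shared by genes at different levels. A match is a description of the sequence, not a bound site.

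The level of some members differed widely between replicates of a group. Ccl2 and Ccl7, the chemokines that draw monocytes through Ccr2, spanned 30.0 times and 33.0 times between the lowest and highest library. In untreated WT, Ccl2 was at 49.7, 3.77 and 11.2 CPM in replicates 1, 2 and 3. In untreated HDAC3 KO, it was at 3.52, 30.9 and 6.81 CPM. With NACs, it was at 5.49, 5.41 and 27.0 CPM in WT and at 52.0, 12.1 and 2.73 CPM in HDAC3 KO. With ACs, it was at 81.9, 4.22 and 7.78 CPM in WT and at 4.19, 26.2 and 23 CPM in HDAC3 KO. Each group thus held a library with much Ccl2 beside 1 with little. The 3 libraries that stood apart had the highest Ccl2 and Ccl7 levels of the series. Ccl7 in those 3 was at 28.0, 37.0 and 30.4 CPM, and between 1.12 and 19.1 CPM in the other 15. Ccl24, an eosinophil-attracting chemokine of alternatively activated macrophages, was at 26.4, 21.2 and 23.6 CPM in the 3 and did not exceed 3.98 CPM elsewhere.

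**Figure D2:**
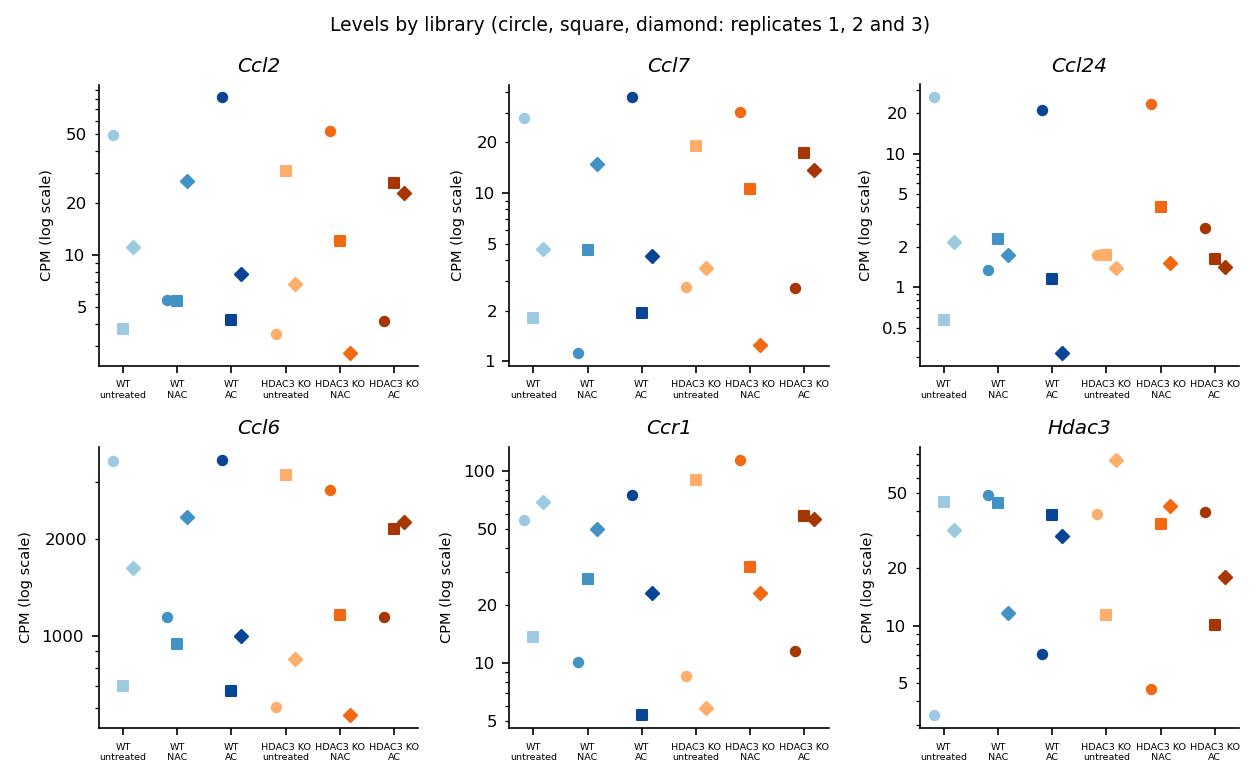
Levels in CPM on a log scale of 5 genes and of Hdac3 in each library, by group, with circle, square and diamond for replicates 1, 2 and 3. Ccl2 runs from 2.73 to 81.9 CPM and Ccl7 from 1.12 to 37.0 CPM, and within each group the replicates are spread widely.

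Across the 18 libraries, Ccl2 and Ccl7 ran opposite to Hdac3. The Spearman rho with Hdac3 was -0.88 for Ccl7, -0.84 for Ccl2, -0.81 for Ccl6 and -0.80 for Ccr1, the receptor of Ccl6 and Ccl9. The Pearson r on log2 CPM was -0.89, -0.91, -0.88 and -0.79 in the same order. Without the 2 libraries farthest from the median Hdac3 level, replicate 1 of untreated WT and replicate 3 of untreated HDAC3 KO, it was -0.92, -0.94, -0.87 and -0.80. The 3 libraries that stood apart held the 3 lowest Hdac3 levels, 3.38, 4.66 and 7.12 CPM, as well as the highest Ccl2 and Ccl7. Over the other 15, a choice made after the data had been seen, rho was -0.81, -0.74, -0.70 and -0.74, and r -0.83, -0.86, -0.83 and -0.78. Over all 18 and after each group's mean was taken away, r was -0.91, -0.91, -0.90 and -0.80. In the other direction, Ccl5 and Ccl8 had a rho of 0.75 and 0.64. Over 11291 genes, the median rho was 0.022 and the middle 90% lay between -0.40 and 0.41, and 0.0177% of genes had a rho at or below that of Ccl7. These values are a description with no test. The points share their library preparation, and the libraries also differed in base composition and in fibroblast markers, whose part in this was not tested.

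In untreated macrophages, 5 of the 38 members with enough counts differed between libraries labelled HDAC3 KO and WT at an adjusted p under 0.05, 1 of them higher and 4 lower. Of all 12101 genes tested, 11.6% did, 3.04% higher and 8.56% lower, so the share of members (13.2%) was near that of all genes. The receptor Ccr2, the interleukins Il10 and Il15 and the receptor Tgfbr1 fell, and the receptor Il4ra rose. In bulk RNA, fewer cells of a type and less RNA per cell cannot be told apart.

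Tgfbr1, the type I receptor of TGF-beta, was at 114, 182 and 121 CPM in untreated WT and at 57.8, 35.9 and 23.2 CPM in untreated HDAC3 KO. Each library of the first group lay above each of the second, with a log2 fold change of -1.95 ± 0.46 (SE, n = 3 and 3; adjusted p = 0.0292 by edgeR's quasi-likelihood test). Tgfbr2, the type II receptor, did not follow, with a log2 fold change of -0.22 and overlapping groups. Il15, a cytokine that sustains NK and memory T cells, was at 13.5, 5.37 and 7.96 CPM in WT and at 1.76, 2.40 and 2.54 CPM in HDAC3 KO (log2 fold change -2.07 ± 0.507, adjusted p = 0.0301 by edgeR). Ccr2, the receptor of Ccl2 and Ccl7, was at 4.31, 15.2 and 14.8 CPM against 2.01, 3.63 and 2.34 CPM (-2.13 ± 0.556, adjusted p = 0.0344 by edgeR). These groups did not overlap in either gene, and replicate 1 of WT was the closest to the HDAC3 KO levels of Ccr2. Il10, which restrains macrophage activation, was at 5.03, 1.34 and 2.85 CPM against 0.251, 0.562 and 0.746 CPM (-2.52 ± 0.725, adjusted p = 0.0438 by edgeR). The lowest of these values came from 1 count. Il4ra, which with its partner chains receives interleukin-4 and interleukin-13, was at 71.5, 58.4 and 101 CPM against 155, 281 and 266 CPM (1.53 ± 0.422, adjusted p = 0.0392 by edgeR). Groups did not overlap for 6 members that were higher and 11 that were lower, and for 18.2% and 22.7% of all genes.

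Marker sums of other cell types differed between the untreated groups. Summed dendritic cell markers were 245 to 585 CPM in WT and 788 to 1164 CPM in HDAC3 KO, with 6 of the 10 genes, Flt3 and Xcr1 among them, under 1 CPM in every library. Summed B cell markers were 24.8 to 33.9 CPM and 47.5 to 89.3 CPM, with 5 of the 10, Pax5 among them, under 1 CPM in every library. Summed T and NK cell markers were 2.19 to 4.01 CPM and 7.28 to 8.65 CPM, with 5 of the 10, Cd3e among them, under 1 CPM in every library. Means over 10 CPM were reached by 2 dendritic cell, 1 B cell and 0 T and NK cell markers. The sums alone therefore do not show that such cells were present. The part of these markers in the results was not tested. The untreated groups also differed in base composition. Within each library, the Spearman rho across genes between a gene's deviation from its mean and its GC content was -0.649, -0.675 and -0.457 in untreated WT and 0.205, 0.649 and 0.622 in untreated HDAC3 KO. The 4 members that fell had a GC content of 39.2% to 46.6%, and Il4ra, which rose, 55.9%, against a median of 50.3% over all genes tested. Across the 38 members, the rho of the fold change with GC content was 0.696, and across all genes 0.706. With a GC and length offset in each library, none of the 38 members passed the threshold, and the fold change of Tgfbr1 was -0.78 and that of Il4ra 0.69 (adjusted p = 0.281 and 0.295 by edgeR). The adjusted p of the 5 members ran from 0.193 for Il15 to 0.532 for Ccr2 with the offset. With the replicate block the count stayed at 5, but Il10 (adjusted p = 0.0624 by edgeR) and Il4ra (0.0563) were not among them. The count moved with single libraries, as did that of all genes. It was 22 without replicate 1 of HDAC3 KO, the shallowest library, and 1 or 0 when another of the 6 was left out, with 1 without replicate 1 of WT or replicate 2 of HDAC3 KO and 0 without each of the other 3. Of all genes, 5887 of 12714 passed without replicate 1 of HDAC3 KO, 78 of 12830 without replicate 1 of WT, 246 of 12455 without replicate 2 of HDAC3 KO and 0 without each of the other 3. The fold changes themselves ran from -2.60 to -1.81 for Ccr2, from -2.86 to -1.99 for Il10, from -2.31 to -1.67 for Il15, from -2.41 to -1.66 for Tgfbr1 and from 1.34 to 1.71 for Il4ra in these 6 fits. The count was 11, all lower, with library totals alone in place of TMM scaling, beside 54 genes higher and 2351 lower of 12101. Under that scaling the median fold change of all genes moved from 0.06 to -0.42.

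**Figure D3:**
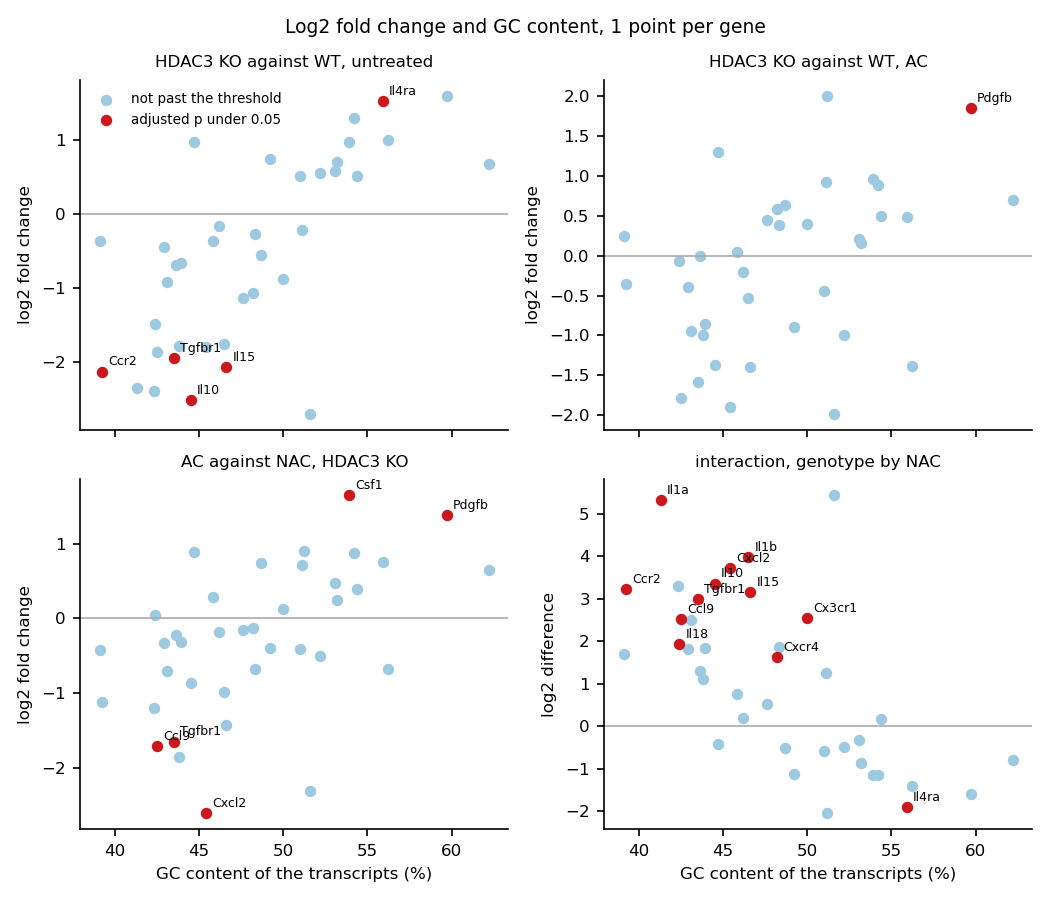
Log2 fold change or log2 difference of each tested member against the GC content of its transcripts, in 4 comparisons, with members at an adjusted p under 0.05 in red. In untreated macrophages the 4 members that fell lie at 39.2% to 46.6% GC and Il4ra at 55.9%, and in the interaction with NACs the order is turned.

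With ACs, Pdgfb was the 1 member of 37 that passed the threshold between HDAC3 KO and WT labels, against 3.75% of 12304 genes (0.788% higher and 2.96% lower). Groups did not overlap for 3 members that were higher and 6 that were lower, and for 14.8% and 13.5% of all genes. Pdgfb encodes the B chain of platelet-derived growth factor, a mitogen of fibroblasts and smooth muscle cells. It was at 10.9, 25.2 and 19.0 CPM in ACs-treated WT and at 43.8, 75.2 and 87.1 CPM in ACs-treated HDAC3 KO, and the groups did not overlap. The log2 fold change was 1.85 ± 0.443 (adjusted p = 0.0311 by edgeR). It stayed past the threshold in all 8 alternative analyses of the full set of libraries, with the GC and length offset among them (2.36, adjusted p = 0.0065 by edgeR), and the adjusted p ranged from 0.00186 to 0.0478. Leaving out single libraries removed the call in 4 of 6 cases. The fold change was then 1.59 without replicate 1 of WT (adjusted p = 0.0662 by edgeR), 1.91 without its replicate 3 (0.0598), 2.14 without replicate 1 of HDAC3 KO (0.313) and 1.69 without its replicate 3 (0.0547). Without replicate 1 of HDAC3 KO, 0 of 12723 genes passed. Over the full set of libraries, the rho of the fold change with GC content was 0.427 over the members and 0.0784 over all genes. Pdgfb has a GC content of 59.7%. The GC trend was -0.478, 0.521 and -0.0252 in the WT and -0.00069, -0.316 and 0.539 in the HDAC3 KO libraries, so it did not divide these groups. Summed B cell markers did, at 26.3 to 36.6 CPM in WT and 64.7 to 76.9 CPM in HDAC3 KO, and so did summed macrophage markers, at 8465 to 10084 CPM and 11989.6 to 14380 CPM, and their part was not tested. Untreated, Pdgfb was at 10.8, 27.3 and 14.1 CPM in WT and at 29.9, 49.5 and 93.9 CPM in HDAC3 KO. These groups did not overlap either, and Pdgfb did not pass the threshold there.

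The next members by p did not pass. Il1rn, the antagonist that blocks the interleukin-1 receptor, was at 24.8, 21.3 and 25.9 CPM in WT and at 74.3, 55.2 and 54.0 CPM in HDAC3 KO with ACs (log2 fold change 1.30 ± 0.389, adjusted p = 0.0636 by edgeR). Its groups did not overlap, and it passed in 5 of 8 alternative analyses, with adjusted p between 0.00839 and 0.131. Ccl9 was at 5109, 981 and 1598 CPM against 471, 879 and 958 CPM (-1.78 ± 0.55, adjusted p = 0.0733 by edgeR). The first of these values came from a library that stood apart, and without it the fold change of Ccl9 was -0.77. Tgfb1, which macrophages are known to release with ACs, was at 1362, 2436 and 1839 CPM in WT and 575, 353 and 1359 CPM in HDAC3 KO (-1.38 ± 0.478, adjusted p = 0.0935 by edgeR). Tnf was at 52.2, 55.8 and 41.0 CPM against 17.0, 28.3 and 32.2 CPM (-1.0 ± 0.408, adjusted p = 0.141 by edgeR). Neither gene's groups overlapped. With the GC and length offset both passed, at -1.55 for Tgfb1 and -1.06 for Tnf (adjusted p = 0.0152 and 0.0389 by edgeR), and over the 8 alternative analyses their adjusted p ranged from 0.0152 to 0.105 and from 0.0389 to 0.304. Without replicate 3 of HDAC3 KO Tgfb1 passed at -2.04 (adjusted p = 0.0338 by edgeR). It did not pass without any other single library, at -1.56 to -0.97 (adjusted p between 0.0705 and 0.418 by edgeR). Without replicate 2 of HDAC3 KO 5 of 38 members passed beside 1693 of 12697 genes, without replicate 2 of WT 4 of 37 beside 514 of 12968, and without its replicate 3 3 of 38 beside 305 of 12745. Without replicate 3 of HDAC3 KO 1 of 37 members passed, beside 341 of 12710 genes. Without replicate 1 of WT 0 members did, beside 378 of 13006 genes, and without replicate 1 of HDAC3 KO 0, beside 0 of 12723.

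With NACs, none of 37 members passed between the genotype labels by edgeR, against 0.864% of 11923 genes (0.537% higher and 0.327% lower). At an unadjusted p under 0.05 there were 6 members (16.2%), against 24.2% of all genes, and the Wald test of DESeq2 called 2 members and 469 of 11517 genes. The 3 with the smallest p were all higher in HDAC3 KO. Cxcl2 was at 2.91, 3.43 and 1.74 CPM in WT and at 11.4, 7.56 and 6.60 CPM in HDAC3 KO (log2 fold change 1.70 ± 0.434, adjusted p = 0.0539 by edgeR). Cx3cr1, the fractalkine receptor of resident macrophages, was at 4.93, 17.6 and 9.38 CPM against 41.4, 20.4 and 23.2 CPM (1.44 ± 0.42, adjusted p = 0.0914 by edgeR). Cxcl10, an interferon-inducible ligand of Cxcr3, was at 4.93, 9.37 and 1.99 CPM against 13.4, 13.4 and 15.9 CPM (1.42 ± 0.437, adjusted p = 0.0965 by edgeR). None of these 3 pairs of groups overlapped. Groups did not overlap for 6 members that were higher and 0 that were lower, and for 15.1% and 11.9% of all genes. Without replicate 2 of WT 9 of 38 members passed, all higher, beside 3121 of 12663 genes. Without replicate 3 of HDAC3 KO 3 of 36 members passed, beside 169 of 11972 genes. The count was 0 without each of the other 4. Beside it, 0 of 12776 and 15 of 11931 genes passed without replicates 1 and 3 of WT. Without replicates 1 and 2 of HDAC3 KO, 86 of 12078 and 39 of 12793 genes passed. The GC trend was 0.525, -0.285 and 0.466 in the WT and -0.575, -0.375 and -0.469 in the HDAC3 KO libraries, and the rho of the fold change with GC content was -0.439 over the members and -0.571 over all genes. Summed B cell markers were 38.9 to 62.9 CPM in WT and 25.1 to 33.8 CPM in HDAC3 KO, and summed basophil and mast cell markers 11.0 to 11.2 CPM and 1.72 to 8.28 CPM. Their part was not tested.

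**Figure D4:**
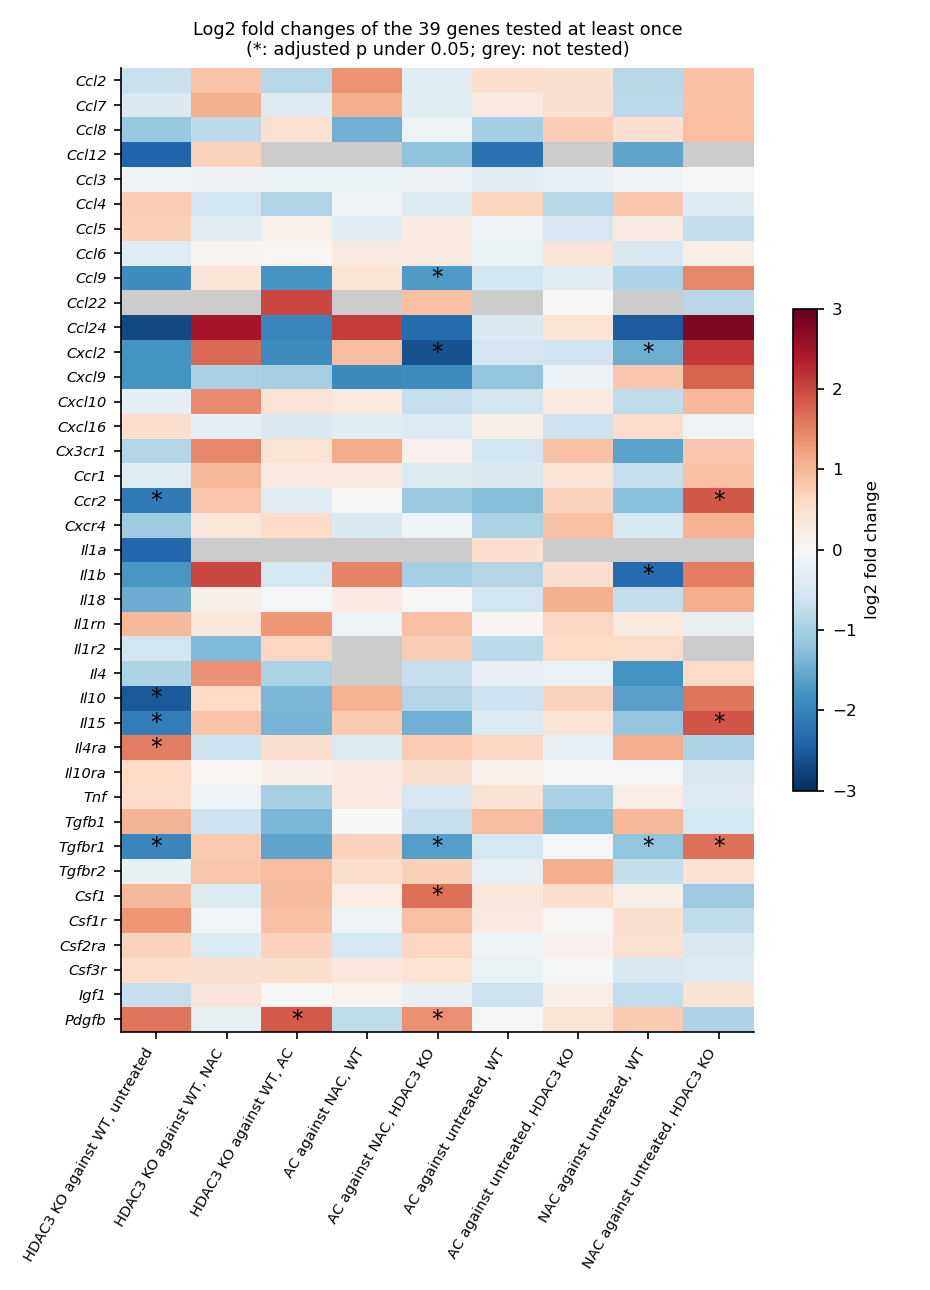
Log2 fold change of the 39 members tested at least once (rows, in order of role) in the 9 comparisons between 2 groups (columns), from blue (lower) to red (higher), with grey for genes not tested and a star for an adjusted p under 0.05. Stars stand in 5 of the 9 columns, with 5 in untreated HDAC3 KO against WT and 5 in ACs against NACs in HDAC3 KO.

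ACs were set against NACs within each genotype label, a comparison in which both arms received K562 cells. In HDAC3 KO, 5 of 38 members passed the threshold, 3 lower and 2 higher with ACs, against 7.38% of 12244 genes (4.73% lower and 2.65% higher). The neutrophil-attracting chemokine Cxcl2, the chemokine Ccl9 and the receptor Tgfbr1 fell, and Csf1, the gene of M-CSF, and Pdgfb rose. Cxcl2 had the smallest p of the members. It was at 11.4, 7.56 and 6.60 CPM with NACs (245, 76 and 169 counts) and at 1.38, 1.93 and 0.743 CPM with ACs (36, 46 and 11 counts). The groups lay far apart, with a log2 fold change of -2.61 ± 0.494 (adjusted p = 0.00229 by edgeR). Cxcl2 passed in all 8 alternative analyses of the full set of libraries, at adjusted p between 1.81e-05 and 0.0315, and with the GC and length offset its fold change was -2.28 (adjusted p = 0.0137 by edgeR). Leaving out 1 library removed its call once, without replicate 1 of the ACs-treated group (-2.61, adjusted p = 0.106 by edgeR).

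Ccl9 was at 3984, 2547 and 1085 CPM with NACs and at 471, 879 and 958 CPM with ACs (log2 fold change -1.71 ± 0.45, adjusted p = 0.0205 by edgeR). Its first value with NACs came from a library that stood apart, without which the adjusted p was 0.149, and with the GC and length offset the fold change was -0.75 (adjusted p = 0.343 by edgeR). Tgfbr1 was at 108, 117 and 103 CPM against 14.7, 59.8 and 28.6 CPM (-1.65 ± 0.43, adjusted p = 0.02 by edgeR; -1.19 and 0.0921 with the offset). Csf1 was at 4.56, 6.17 and 5.43 CPM against 24.1, 10.7 and 15.5 CPM (1.65 ± 0.421, adjusted p = 0.0175 by edgeR; 1.18 and 0.0503 with the offset). Pdgfb was at 21.8, 27.5 and 30.7 CPM against 43.8, 75.2 and 87.1 CPM (1.38 ± 0.387, adjusted p = 0.0298 by edgeR; 1.30 and 0.0347 with the offset). None of the 4 pairs of groups overlapped. Leaving out single libraries removed the call of Ccl9 in 3 of 6 cases, of Tgfbr1 in 3, of Csf1 in 4 and of Pdgfb in 5, and each of the 4 was lost without replicate 1 of the ACs-treated group. In that fit 0 of 12689 genes passed, and the fold changes were -1.47 for Ccl9, -1.28 for Tgfbr1, 1.28 for Csf1 and 1.60 for Pdgfb (adjusted p of 0.211, 0.194, 0.171 and 0.121 by edgeR). Summed fibroblast markers were 21 to 96.3 CPM with NACs and 168 to 377 CPM with ACs, and summed B cell markers 25.1 to 33.8 CPM and 64.7 to 76.9 CPM, and their part was not tested. The GC trend was -0.575, -0.375 and -0.469 with NACs and -0.00069, -0.316 and 0.539 with ACs, which do not overlap. The 3 members that were lower with ACs had a GC content of 42.5% to 45.4% and the 2 that were higher 53.9% to 59.7%. The rho of the fold change with GC content was 0.549 over the members and 0.356 over all genes. This comparison shares its ACs-treated libraries with that of the genotype labels above, so both Pdgfb results rest on the same 3 values of 43.8, 75.2 and 87.1 CPM. Groups did not overlap for 4 members that were higher and 8 that were lower, and for 14.5% and 14.8% of all genes. The count was 12 of 38 without replicate 2 of the ACs-treated group, beside 3013 of 12623 genes. It was 0 without its replicate 1, beside 0 of 12689 genes, and 2 without its replicate 3, beside 308 of 12846. Without replicates 1, 2 and 3 of the NACs-treated group it was 2, 2 and 4, beside 436 of 12808, 310 of 12742 and 599 of 12774 genes. With all 18 libraries in 1 fit only Cxcl2 passed, beside 252 of 13662 genes. With the replicate block 7 members passed, 2 higher and 5 lower, beside 1400 of 12244 genes.

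**Figure D5:**
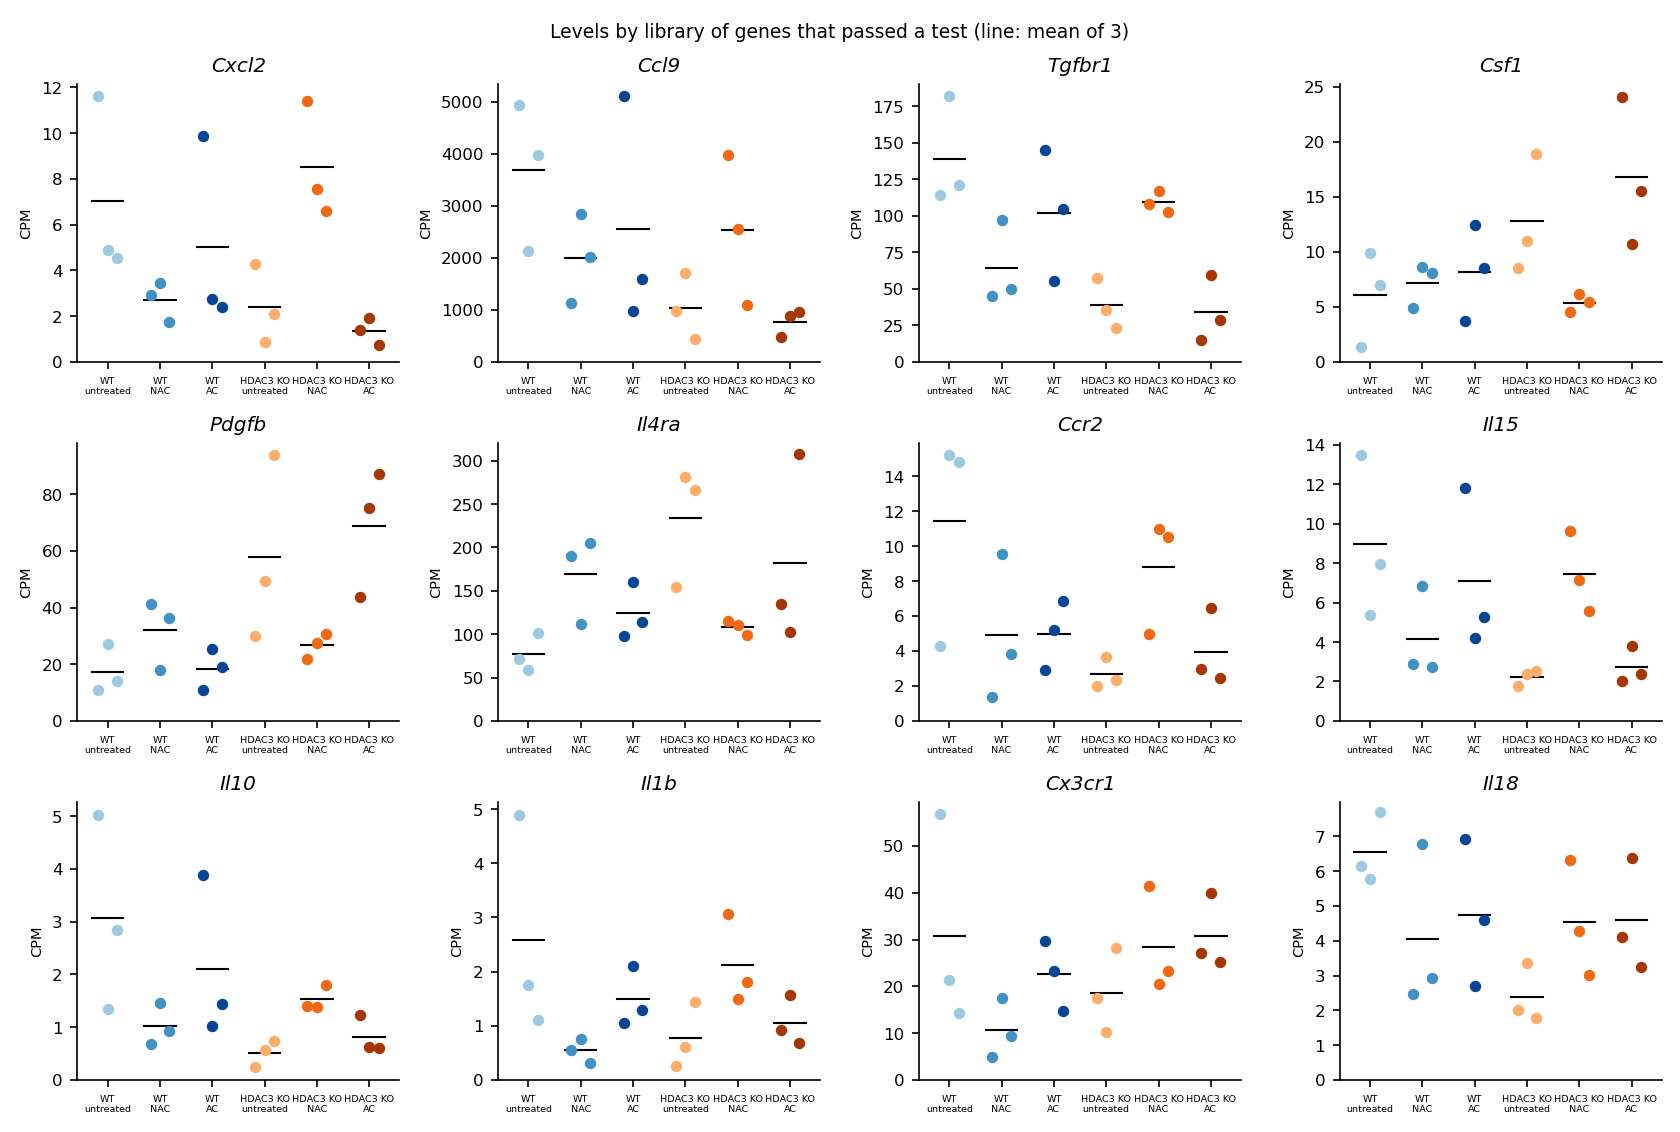
Levels in CPM of 12 genes that passed at least 1 test, by group and library, with lines at the mean of 3. Cxcl2 in HDAC3 KO lies between 6.60 and 11.4 CPM with NACs and between 0.743 and 1.93 CPM with ACs, and Pdgfb with ACs lies between 43.8 and 87.1 CPM in HDAC3 KO and between 10.9 and 25.2 CPM in WT.

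In WT, ACs and NACs differed in none of 34 members and in none of 11844 genes by edgeR (0% called). Groups did not overlap for 2 members that were higher and 0 that were lower, and for 5.47% and 4.88% of all genes. At an unadjusted p under 0.05 there were 3 members (8.82%), against 4.16% of all genes, and DESeq2 called 0 members. Cx3cr1 was at 4.93, 17.6 and 9.38 CPM with NACs and at 29.7, 23.2 and 14.8 CPM with ACs (log2 fold change 1.12 ± 0.465, adjusted p = 0.898 by edgeR). Il1b, the secreted interleukin-1 of activated macrophages, was at 0.56, 0.762 and 0.311 CPM against 1.05, 2.11 and 1.30 CPM (1.49 ± 0.683, adjusted p = 0.898 by edgeR). Cxcl9, an interferon-inducible chemokine, was at 2.02, 9.14 and 0.373 CPM against 1.05, 1.34 and 0.583 CPM (-1.92 ± 0.885, adjusted p = 0.898 by edgeR). Cxcl9 rested on the 9.14 CPM of replicate 2 with NACs, without which its fold change was -0.16. Cxcl2 in WT was at 2.91, 3.43 and 1.74 CPM with NACs and at 9.85, 2.75 and 2.40 CPM with ACs, and these groups overlapped.

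ACs against untreated gave no member past the threshold in either genotype label by edgeR, with 0% of 12199 and of 12136 genes called. The Wald test of DESeq2 called 4 genes and 0 of 42 members in WT. In HDAC3 KO it gave an adjusted p to only 9 members and 1203 genes, of which it called 0 and 13, so it says nothing of the other members there. At an unadjusted p under 0.05 there were 3 of 38 members in WT (7.89%, against 12.7% of all genes) and 1 of 37 in HDAC3 KO (2.7%, against 14.5%). In WT these were lower with ACs. Ccl12, a mouse ligand of Ccr2, was at 2.65, 1.14 and 1.04 CPM untreated and at 0.21, 0.384 and 0.454 CPM with ACs (log2 fold change -2.25 ± 0.703, adjusted p = 0.393 by edgeR). Cxcr4, the receptor of Cxcl12, was at 249, 348 and 252 CPM against 181, 141 and 144 CPM (-0.95 ± 0.328, adjusted p = 0.393 by edgeR), and Ccr2 had a log2 fold change of -1.28 ± 0.459 with the same adjusted p. The Cxcr4 and Ccl12 groups did not overlap, and in all 1 member was higher and 3 were lower without overlap, with 7.16% and 8.32% of all genes. In HDAC3 KO, Tgfb1 was at 1841, 2319 and 1744 CPM untreated and at 575, 353 and 1359 CPM with ACs (-1.27 ± 0.509, adjusted p = 0.311 by edgeR). Tnf was at 57.8, 43.2 and 63.9 CPM against 17.0, 28.3 and 32.2 CPM (-0.97 ± 0.481, adjusted p = 0.358 by edgeR). Tgfbr2 had a log2 fold change of 1.09 ± 0.557 (adjusted p = 0.362 by edgeR). In this comparison 0 members were higher and 4 were lower without overlap, with 9.55% and 12% of all genes. Tnf and Tgfb1 were lower with ACs in each HDAC3 KO library, and in WT their log2 fold changes were 0.44 and 0.93. In HDAC3 KO, summed dendritic cell markers were 788 to 1164 CPM untreated and 380.1 to 711 CPM with ACs, and summed T and NK cell markers 7.28 to 8.65 CPM and 3.73 to 4.86 CPM, and their part was not tested. Il10 in WT was at 5.03, 1.34 and 2.85 CPM untreated and at 3.88, 1.02 and 1.43 CPM with ACs, which overlap.

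NACs were set against untreated within each genotype label. In WT, 3 of 37 members passed, all lower with NACs, against 8.52% of 11912 genes (4.19% higher and 4.33% lower). Il1b was at 4.90, 1.76 and 1.10 CPM untreated and at 0.56, 0.762 and 0.311 CPM with NACs (log2 fold change -2.32 ± 0.703, adjusted p = 0.0332 by edgeR). Tgfbr1 was at 114, 182 and 121 CPM against 45.1, 97.2 and 50 CPM (-1.18 ± 0.391, adjusted p = 0.0434 by edgeR). Cxcl2 was at 11.6, 4.91 and 4.56 CPM against 2.91, 3.43 and 1.74 CPM (-1.46 ± 0.481, adjusted p = 0.0439 by edgeR). All 3 pairs of groups were apart. Without untreated replicate 1, a library that stood apart, Il1b was at -1.46, Cxcl2 at -0.87 and Tgfbr1 at -1.31 (adjusted p = 0.323, 0.371 and 0.169 by edgeR). Groups did not overlap for 1 member that was higher and 5 that were lower, and for 13.8% and 16% of all genes. Summed dendritic cell markers were 245 to 585 CPM untreated and 642 to 1233 CPM with NACs, B cell markers 24.8 to 33.9 CPM and 38.9 to 62.9 CPM, and basophil and mast cell markers 1.26 to 9.40 CPM and 11.0 to 11.2 CPM, and their part was not tested. The 3 genes have a GC content of 43.5% to 46.5%, and with the GC and length offset none of the members passed, beside 0 of 11912 genes. Over the alternative analyses, this offset among them, Il1b ran from -2.61 to -1.64, Cxcl2 from -1.76 to -0.81 and Tgfbr1 from -1.55 to -0.44. The count was 16 of 38 without replicate 2 with NACs, 3 higher and 13 lower, beside 4232 of 12383 genes, 6 of 37 without untreated replicate 3, 2 higher and 4 lower, beside 1342 of 12327, and 0 without each of the other 4 libraries. With library totals alone or with all 18 libraries in 1 fit it was 0, as it was for all genes. With the replicate block it was 8, 2 higher and 6 lower, beside 834 genes higher and 950 lower of 11912.

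In HDAC3 KO, 3 of 36 members passed, all higher with NACs, against 6.54% of 12143 genes (6.2% higher and 0.338% lower). Il15 was at 1.76, 2.40 and 2.54 CPM untreated and at 9.64, 7.16 and 5.55 CPM with NACs (log2 fold change 1.89 ± 0.431, adjusted p = 0.04 by edgeR). Tgfbr1 was at 57.8, 35.9 and 23.2 CPM against 108, 117 and 103 CPM (1.65 ± 0.397, adjusted p = 0.0435 by edgeR). Ccr2 was at 2.01, 3.63 and 2.34 CPM against 4.98, 11.0 and 10.5 CPM (1.86 ± 0.463, adjusted p = 0.0459 by edgeR). None of these groups overlapped, and in all 7 members were higher and 4 lower without overlap, with 21.8% and 16.9% of all genes. The untreated libraries are those of the genotype comparison above, so for these 3 genes both comparisons rest on the same low untreated levels. Summed dendritic cell markers were 788 to 1164 CPM untreated and 274 to 707 CPM with NACs. Fibroblast markers were 139 to 194 CPM and 21 to 96.3 CPM, B cell markers 47.5 to 89.3 CPM and 25.1 to 33.8 CPM, and T and NK cell markers 7.28 to 8.65 CPM and 2.23 to 4.88 CPM. Their part was not tested. The GC content of the 3 genes was 39.2% to 46.6%. The GC trend of the libraries turned from between 0.205 and 0.649 untreated to between -0.575 and -0.375 with NACs, and with the offset no member passed, beside 0 of 12143 genes. Over the alternative analyses, the offset among them, Il15 ran from 1.08 to 2.20, Tgfbr1 from 0.57 to 1.98 and Ccr2 from 0.55 to 2.25. The count was 0 with the size factors of DESeq2, as for all genes, 7 of 36 with library totals alone, beside 2112 of 12143 genes, 9 of 39 without untreated replicate 1, 5 higher and 4 lower, beside 4441 of 12493 genes (2713 higher and 1728 lower), and 0 without each of the other 5 libraries, as for all genes. The Wald test of DESeq2 called 5 members higher and 2 lower of 33, beside 1260 genes higher and 803 lower of 11149. With the replicate block 0 members and 0 genes passed.

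The difference of these responses was tested as an interaction. For NACs against untreated, 12 of 39 members differed between the genotype labels, 11 with a more positive change in HDAC3 KO and 1, Il4ra, with a more negative one. Of all 13005 genes, 34.8% passed, 22.1% more positive and 12.8% more negative, so a share of 30.8% of the members was no higher than that of all genes. By role, these were the chemokines Cxcl2 (log2 difference 3.72 ± 0.784, adjusted p = 0.0021 by edgeR) and Ccl9 (2.51 ± 0.742, 0.0146), and 3 of the 4 chemokine receptors, Ccr2 (3.22 ± 0.835, 0.00739), Cx3cr1 (2.54 ± 0.796, 0.0209) and Cxcr4 (1.63 ± 0.613, 0.0431). Of the interleukin-1 family, Il1b (3.97 ± 1.03, adjusted p = 0.00674 by edgeR), Il1a (5.31 ± 1.7, 0.0241) and Il18 (1.93 ± 0.69, 0.0345) passed, and the inhibitors Il1rn and Il1r2 did not. Il18 and Cxcr4 each lost the call in 7 of 9 alternative analyses and in 10 of 12 fits without a single library. Il15 (3.15 ± 0.683, adjusted p = 0.00245 by edgeR), Il10 (3.35 ± 0.911, 0.0089) and Tgfbr1 (2.98 ± 0.573, 0.00132) also passed, and Il4ra had a log2 difference of -1.90 ± 0.496 (0.00703). Il1a rested on few counts outside the libraries that stood apart, with 115 counts in replicate 1 of NACs-treated HDAC3 KO and 1 and 4 in replicates 2 and 3.

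The 11 genes had a GC content of 39.2% to 50% and Il4ra 55.9%, and the rho of the difference with GC content was -0.692 over the 39 members and -0.657 over all genes. With the GC and length offset Il15 was the 1 of the 12 that passed (1.94, adjusted p = 0.0371 by edgeR), the other 11 did not, and Il18 was at 0.12. Of all genes, 1217 of 13005 passed with it. Over the alternative analyses, this offset among them, the lowest value was 2.48 for Il1b and 2.19 for Cxcl2. For Il10, Cx3cr1, Ccr2, Tgfbr1, Il1a, Cxcr4 and Ccl9 it was 1.64, 1.30, 1.23, 1.12, 1.08, 0.90 and 0.58. The highest value of Il4ra was -0.98. Outside the 12, Il1rn passed with the offset (-2.31, adjusted p = 0.0259 by edgeR), from -0.42 (0.572) without it. Without the libraries of this fit that stood apart, replicate 1 of untreated WT and replicate 1 of NACs-treated HDAC3 KO, a choice made after the data had been seen, 5 of the 12 passed, which were Cxcl2 (2.79, adjusted p = 0.0355 by edgeR), Ccr2 (3.87, 0.00912), Il15 (2.41, 0.0431), Tgfbr1 (3.06, 0.00958) and Il4ra (-1.96, 0.0431). Without single libraries the count was 6 to 17, beside 3043 to 6297 genes. It was 6 without replicate 1 of untreated WT, beside 3363 of 13757 genes. It was 7 without replicate 3 of NACs-treated WT (3446 of 13102 genes) or replicate 1 of NACs-treated HDAC3 KO (3052 of 13171). Without replicate 1 of NACs-treated WT it was 8 (3089 of 13811 genes).

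The other interactions gave no member past the threshold by edgeR. For ACs against NACs, 0.0765% of 13076 genes (0.0306% more positive and 0.0459% more negative) and 0 of 39 members passed, 13 members (33.3%) and 20.0% of genes had an unadjusted p under 0.05, and the Wald test of DESeq2 called 4 members and 741 of 12736 genes. Cxcl2 had the smallest p, with a log2 difference of -3.51 ± 0.773 (adjusted p = 0.0561 by edgeR). The difference of Cxcl2 between ACs and NACs in HDAC3 KO was thus not shown to differ from that in WT at the threshold. Pdgfb (2.16 ± 0.56, adjusted p = 0.0626 by edgeR) and Tgfbr1 (-2.34 ± 0.646, 0.072) followed. Over the alternatives, the adjusted p of Cxcl2 ranged from 0.00121 to 0.289, with 0.289 where replicate 1 of ACs-treated WT and of NACs-treated HDAC3 KO, which stood apart, were left out. Its log2 difference ran from -3.80 to -2.30 over the alternatives. Without replicate 1 of ACs-treated WT alone it was -2.71 (adjusted p = 0.147 by edgeR). Without replicate 2 of NACs-treated WT or replicate 2 of ACs-treated HDAC3 KO 4 members passed, beside 782 of 13884 and 826 of 13450 genes, and without replicate 2 of ACs-treated WT 2, beside 228 of 13940. For ACs against untreated, 0 of 39 members and 0% of 13225 genes passed, with 5 members (12.8%) and 24.1% of genes at an unadjusted p under 0.05, and 4 members and 1249 of 9962 genes called by DESeq2. Tgfb1 (-2.36 ± 0.733, adjusted p = 0.113 by edgeR), Ccl4 (-1.72 ± 0.56, 0.116) and Tnf (-1.62 ± 0.541, 0.116) had the smallest p. Without replicate 3 of ACs-treated HDAC3 KO 2 members passed, beside 1100 of 13566 genes, and without replicate 3 of untreated WT 1, beside 471 of 13592.

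The monocyte-attracting chemokines Ccl2, Ccl7, Ccl8 and Ccl12 had 0 calls in the 12 comparisons by edgeR, and log2 fold changes of Ccl2 between 2 groups ran from -0.85 to 1.35 with SE of 0.824 to 1.56. Ccl6 had 0 calls as well, with changes from -0.45 to 0.39, while its neighbour Ccl9 passed for ACs against NACs in HDAC3 KO and in 1 interaction. Csf1r was at 1910.3, 1169 and 1399 CPM in untreated WT and at 1169, 4006 and 6793 CPM in untreated HDAC3 KO (1.30 ± 0.573, adjusted p = 0.119 by edgeR), which overlapped. Csf1r passed in 2 of 8 alternative analyses, and its fold change was 0.50 with the GC and length offset and 1.68 without replicate 1 of HDAC3 KO (adjusted p = 0.62 and 0.000526 by edgeR). Ccl3, Ccl5, Cxcl16, Il10ra, Csf2ra, Csf3r, Igf1 and Tgfbr2 also had 0 calls by edgeR. Cxcl1, Cxcl3, Il6, Il12b and Ifnb1 did not pass the count filter in the edgeR fit of any comparison's own libraries. Exons of Cxcl16 overlap those of Zmynd15, and exons of Csf1r those of Hmgxb3, on the opposite strand, so that without strand their reads cannot be told apart.

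Other genes of the same families were read from a list of 120 symbols, 2 of which stood for several identifiers and were left out. Of those with enough counts, 7 of 59 (11.9%) passed in untreated macrophages between genotype labels, 5 higher and 2 lower, near the 11.6% of all genes. Il13ra1, which pairs with Il4ra as the receptor of interleukin-13, was at 30.9, 11.5 and 22.4 CPM in WT and at 3.27, 3.06 and 2.29 CPM in HDAC3 KO (log2 fold change -3.01 ± 0.498, adjusted p = 0.0183 by edgeR). It fell where Il4ra rose, and their GC contents are 41.2% and 55.9%. Csf2rb, the shared beta chain of the receptors of GM-CSF and interleukin-3, was at 113, 112 and 93.6 CPM against 417, 299.5 and 328 CPM (1.60 ± 0.392, adjusted p = 0.0302 by edgeR). Ifngr1, the interferon-gamma receptor, had a log2 fold change of -1.58 ± 0.435 (adjusted p = 0.0392 by edgeR), Vegfb, a growth factor of the VEGF family, 1.56 ± 0.426 (0.0382), and Il21r 1.45 ± 0.434 (0.0478). With the GC and length offset none of these 5 passed, at adjusted p between 0.114 and 0.347 by edgeR, and Il13ra1 was then at -1.62. Leaving out single libraries removed the call of Il13ra1 in 3 of 6 cases and those of Csf2rb, Ifngr1, Vegfb and Il21r in 5 each. With ACs, 1 of 63 (1.59%) passed between the labels, against 3.75% of all genes, which was Csf2rb again, at 127, 118 and 123 CPM in WT and at 379.6, 278 and 434 CPM in HDAC3 KO (1.51 ± 0.39, adjusted p = 0.0421 by edgeR). Its call was lost in 5 of 6 fits without a single library, at adjusted p up to 0.313, and in 2 of 8 alternative analyses, at up to 0.0717. Csf2rb has a close copy, Csf2rb2, and their reads may be shared.

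For ACs against NACs in HDAC3 KO, 6 of 64 of these genes (9.38%) passed, 5 higher and 1 lower, against 7.38% of all genes. Il13ra1 fell (-2.14 ± 0.467, adjusted p = 0.0068 by edgeR), and Il17ra (1.52 ± 0.389, 0.0181), Csf2rb (1.43 ± 0.384, 0.0232), Csf2rb2 (1.44 ± 0.404, 0.0294) and Pdgfrb, the receptor of platelet-derived growth factor (1.94 ± 0.549, 0.0302), rose. For NACs against untreated, 8 of 59 (13.6%) passed in WT, 4 in each direction, against 8.52% of all genes, and 3 of 61 (4.92%) in HDAC3 KO, all higher, against 6.54%. Il13ra1 and Ifngr1 were among the calls of both, lower in WT (-2.07 ± 0.449 and -1.33 ± 0.382) and higher in HDAC3 KO (3.02 ± 0.529 and 1.67 ± 0.35), with adjusted p of 0.01, 0.0283, 0.0353 and 0.0355 by edgeR. With the GC and length offset none of these 4 passed, and of the 5 named for ACs against NACs Il17ra did (0.97, adjusted p = 0.0496 by edgeR). Leaving out single libraries removed each of these 9 calls in 3 to 5 of 6 cases. In the interaction of genotype label with NACs, 23 of 66 passed, a total of 34.8% as of all genes. By direction 9 were more positive and 14 more negative, while of all genes 22.1% were more positive and 12.8% more negative. No gene of the list passed for NACs between the genotype labels (0 of 60), for ACs against NACs in WT (0 of 58), or for ACs against untreated (0 of 60 and 0 of 61) by edgeR.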

How the data were processed

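Per the labels, the RNA of 18 macrophage libraries was prepared with the NEBNext Ultra II kit. The submitters' processing notes name Trimmomatic 0.36, STAR 2.5.2b, featureCounts of Subread 1.5.2 and GRCm38. The strand setting was not given in the sources used here. The deposited values are raw counts per gene without normalization, and the authors compared groups with DESeq2. Reads were aligned to the mouse genome per the study's methods.

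The libraries of each comparison were fitted alone with edgeR 4.0.16 in R 4.3.3 (filterByExpr with a minimum count of 10 and a minimum total of 15, TMM scaling, robust glmQLFit, glmQLFTest). P values were two-sided and adjusted by the Benjamini-Hochberg method over all genes tested, with a threshold of 0.05, and the SE is the absolute log2 fold change divided by the square root of F. Levels are TMM-scaled CPM over the 18 libraries, and TPM from the gene lengths in the files. GC content came from GENCODE M21 transcripts, and its trend in each library was read over genes with a mean above 1 CPM, as the deviation of log2(CPM + 0.5) from the gene's mean. Alternatives were the Wald test and size factors of DESeq2 1.42.0, library totals alone, no filter, all 18 libraries in 1 fit, a replicate block, a GC and length offset (mgcv 1.9.3), both together, and each library left out. Leaving out the 3 libraries that stood apart was chosen after seeing the data. The fits of HDAC3 KO against WT, untreated and with ACs, were also run on simulated counts with known fold changes. These counts had no GC trend, and the interactions and the replicate block were not simulated. The simulation therefore does not bear on how these affect the calls.

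The members and lists were chosen with earlier results of these data known. A member's full test is given where it passed or was among the 3 members with the smallest p in a comparison, and other pathway genes where they passed, at most 5 per comparison. Values of Tnf, Tgfb1, Csf1r, Il1rn, Il10 and Pdgfb outside this rule were added after they were seen. Replicates are separate samples per the labels. Some items are not reported here. Columns of the counts files other than the counts and the lengths were not used.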

Additional observations from a re-analysis of the deposited data

Results flagged for a closer look

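The response to NACs, relative to untreated macrophages, differed between the genotype labels in 12 members by the interaction test, with 34.8% of all genes also past the threshold. The log2 difference, as the change in HDAC3 KO minus that in WT, was 2.51 for Ccl9, 3.72 for Cxcl2, 2.54 for Cx3cr1, 3.22 for Ccr2, 1.63 for Cxcr4, 5.31 for Il1a, 3.97 for Il1b, 1.93 for Il18, 3.35 for Il10, 3.15 for Il15, -1.90 for Il4ra and 2.98 for Tgfbr1. The libraries of the 4 groups differed in their GC trend, and the part of that trend in these values was not tested beyond the GC and length offset. With that offset 2 of the 39 members passed, Il15 among these 12 and Il1rn outside them, beside 1217 of 13005 genes. Il1a was at 1.49 without replicate 1 of NACs-treated HDAC3 KO (adjusted p = 0.482 by edgeR) and at 2.99 with the replicate block (0.143). Cxcr4 was at 0.99 without replicate 3 of NACs-treated WT (0.196) and Ccl9 at 1.87 without replicate 3 of untreated HDAC3 KO (0.0507). Without replicate 1 of untreated WT, Cx3cr1 was at 1.47 (0.124), Il10 at 2.51 (0.0617), Il1b at 2.85 (0.0491) and Il15 at 2.45 (0.0201). Over the 12 fits without a single library, Il18 ran from 1.40 to 2.55, Cxcl2 from 2.90 to 4.02, Ccr2 from 2.52 to 4.15 and Tgfbr1 from 2.44 to 3.45, and Il18 and Cxcr4 lost the call in 10 of them each. No group had the 4 samples needed to look for single outlying samples.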

How the results depend on the processing

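Of the counts of members and the 72 values of single genes in a comparison that were recomputed, 1 changed sign, which was Il1rn in the interaction of NACs with untreated, not called at -0.42 and at 0.16 with library totals alone. With the Wald test of DESeq2 the count of members past the threshold between genotype labels was 10 untreated, 2 with NACs and 5 with ACs, for NACs against untreated in HDAC3 KO it was 7, and in the interactions of ACs with NACs and of ACs with untreated 4 each, beside 3299 of 10386, 469 of 11517, 1365 of 13024, 2063 of 11149, 741 of 12736 and 1249 of 9962 genes. With library totals alone it was 11 between untreated labels, 3 for ACs against NACs in HDAC3 KO, and 0 and 7 for NACs against untreated in WT and HDAC3 KO, beside 2405, 578, 0 and 2112 genes. Without the filter it was 10, 5 and 5 between labels untreated, with NACs and with ACs, 1 and 7 for NACs against untreated, and 5 in the interaction of ACs with NACs, beside 1417, 575, 728, 454, 1479 and 537 genes. With all 18 libraries in 1 fit it was 12 untreated and 2 with ACs between labels, 1 for ACs against NACs in HDAC3 KO, and 0 and 1 for NACs against untreated, beside 3308, 658, 252, 0 and 847 of 13662 genes. With the GC and length offset it was 0 untreated and 5 with ACs between labels, 3 for ACs against NACs in HDAC3 KO, 0 and 0 for NACs against untreated, and 3 and 2 in the interactions of ACs with NACs and of NACs with untreated, beside 0, 1226, 663, 0, 0, 245 and 1217 genes. With that offset and the replicate block it was 0, 4, 0, 0, 1 and 0 for untreated and ACs between labels, NACs against untreated, and the same 2 interactions, beside 0, 550, 3, 0, 92 and 486 genes. For ACs against NACs in HDAC3 KO it was 7 with both, beside 1031 of 12244 genes. With DESeq2 size factors it was 1 with NACs between labels and 0 for NACs against untreated in HDAC3 KO, beside 152 and 0 genes. Without the libraries that stood apart, 2 of the 12 in that fit, it was 5 in the interaction of NACs with untreated, beside 1718 of 13280 genes. The cause of these shifts was not tested. The labels do not say that a replicate number marks a shared animal, and in none of the 9 comparisons between 2 groups did every same-numbered pair correlate above 0.1, so the replicate block was kept as an alternative. These correlations ran from -0.33 to 0.46, were all positive for ACs against NACs in HDAC3 KO (0.09 to 0.11, with 4 of 6 samples correlated best with their own number), ACs against untreated in WT (0.06 to 0.46) and NACs against untreated in WT (0.05 to 0.09), and elsewhere 0 or 1 of 6 samples correlated best with their own number. With the replicate block the count was 2 with NACs and 2 with ACs between labels, and 8 and 0 for NACs against untreated in WT and HDAC3 KO, beside 217, 373, 1784 and 0 genes. With it the count was 7 for ACs against NACs in HDAC3 KO, beside 1400 of 12244 genes. For ACs against untreated in WT it was 0, beside 53 of 12199 genes. Leaving out 1 library gave counts of 0 to 22, 0 to 9 and 0 to 5 between labels untreated, with NACs and with ACs, 0 to 12 for ACs against NACs in HDAC3 KO, 0 to 16 and 0 to 9 for NACs against untreated, and 0 to 4, 0 to 2 and 6 to 17 in the interactions of ACs with NACs, ACs with untreated and NACs with untreated, beside 0 to 5887, 0 to 3121, 0 to 1693, 0 to 3013, 21 to 4232, 0 to 4441, 0 to 826, 0 to 1100 and 3043 to 6297 genes. For untreated labels the split was 1 higher and 4 lower, 2 and 4 with size factors, and 0 and 11 with library totals. In the interaction of NACs with untreated it was 11 and 1, 9 and 3, and 16 and 1, as the median of all genes moved from 0.12 to -0.27 and 0.70. For ACs against NACs in HDAC3 KO it was 2 and 3, 2 and 3, and 0 and 3. Il6, Ifnb1, Il12b, Cxcl1 and Cxcl3 were under the count filter of each comparison's own edgeR fit.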
